A study of Homo sapiens with 20 samples.

Results

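The miRNAs described here were measured in wild-type HCT116 cells, a human colon cancer line, that had been kept for 72 hr in medium with 0.1% fetal bovine serum (FBS), which starves cells of serum, or with 9.1% FBS. These 6 of the 20 libraries of the series were chosen by their titles, with 3 libraries per group, and all 2588 mature miRNAs of their count tables were considered. Per the labels both groups were wild type and carried no knockout or rescue construct, so that serum was the only labelled difference between them. The other libraries come from DROSHA-knockout HCT116 or HEK293E cells given full-length DROSHA, the shorter form DROSHA-p140 or GFP, and from untreated wild-type HCT116 cells with a single library. The series title concerns how intronic miRNAs are processed, and in the serum experiment, as in the untreated library, the cells' own DROSHA was left in place. The labels do not say whether replicates were separate cultures, so a p-value here speaks to the spread among these 6 libraries and not necessarily to that among cultures.

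A miRNA is a short RNA that guides Argonaute proteins to messenger RNAs, mainly through its seed, the bases near its 5′ end, and so lowers the output of its targets. DROSHA cuts a hairpin out of a primary transcript in the nucleus, DICER removes the loop in the cytoplasm, and 1 strand of the resulting duplex, the 5p or the 3p arm, is usually kept in preference to the other. Serum supplies growth factors and lipids, and its removal slows proliferation. It bears on p53, E2F, MYC, NF-kB and SREBP, transcription factors to which several miRNA genes are known to respond.

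The libraries held 1745626 to 1927442 miRNA reads in 9.1% FBS and 1767223 to 2822316 in 0.1% FBS, counting 1 copy of each mature miRNA. Levels are given as CPM, counts relative to the library total after TMM scaling, a factor per library that places the bulk of miRNAs at the same level. A change is a log2 fold change of 0.1% against 9.1% FBS ± its standard error, and a miRNA is said to have risen or fallen where the adjusted p of edgeR's quasi-likelihood test (Benjamini-Hochberg over 577 miRNAs tested, 3 libraries against 3) was under 0.05. The libraries numbered 3 stood apart in both groups. The chi-square per degree of freedom was 9.65 between replicates 1 and 2 in 9.1% FBS and 10.2 in 0.1% FBS, and 57.7 to 89.6 between either of them and replicate 3. Deviations from the group mean were correlated between same-numbered libraries (r = 0.68, 0.59 and 0.90 over 218 miRNAs of at least 100 CPM). Across numbers, replicates 1 and 2 were correlated to a similar degree (r = 0.79 and 0.66), so only replicate 3 was matched by its number. A second fit with the replicate number as a block was set beside the main one where it changed a count. That fit leaves few degrees of freedom per miRNA. Its p-values therefore rest largely on variance pooled over miRNAs, and not on the spread among same-numbered libraries. Markers of intestinal epithelium were present in all 6 libraries. Sums over marker lists, here and below, are CPM over plain library totals, without TMM scaling. This list summed to 30769 to 33771 CPM in 9.1% FBS and 37412 to 38642 CPM in 0.1% FBS, most of it miR-200c-3p and miR-141-3p. All 5 tested members (miR-192-5p, miR-194-5p, miR-200c-3p, miR-141-3p and miR-375) rose, against 25.5% of all miRNAs tested, and 2 of them also rose on library totals. In bulk RNA a change in the number of cells of a type and in the RNA of each cell cannot be told apart. miR-192-5p and miR-194-5p also stand in the p53-linked list below, and miR-200c-3p and miR-141-3p in that of the miR-200 family. The calls of miR-141-3p and miR-375 were lost without single libraries, miR-375 without 9.1% FBS replicate 1 or 0.1% FBS replicate 1 (edgeR adjusted p = 0.057 to 0.064). The muscle markers miR-1-3p, miR-133b and miR-206 had 0 reads in all 6 libraries, and the liver marker miR-122-5p had 0 to 3.

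The mature sequences of the miRNAs that changed most are shown first, since the seed decides which targets a miRNA shares with others. They are RefSeq sequences on GRCh38.p14, written 5′ to 3′, with the seed (bases 2 to 8) in capitals. The 8 largest rises among miRNAs of at least 100 CPM were these.
miR-95-3p: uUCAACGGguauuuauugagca
miR-194-5p: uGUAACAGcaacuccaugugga
miR-34a-5p: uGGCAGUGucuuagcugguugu
miR-33a-5p: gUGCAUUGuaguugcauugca
miR-146b-5p: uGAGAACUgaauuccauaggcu
miR-190a-5p: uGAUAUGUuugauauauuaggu
miR-26a-5p: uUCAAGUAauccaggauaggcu
miR-210-3p: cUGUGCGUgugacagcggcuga
The 8 largest falls at that level were these.
miR-4521: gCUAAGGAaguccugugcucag
miR-335-3p: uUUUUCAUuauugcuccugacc
miR-942-5p: uCUUCUCUguuuuggccaugug
miR-15b-3p: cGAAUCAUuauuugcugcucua
miR-421: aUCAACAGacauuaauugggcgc
miR-224-5p: cAAGUCACuagugguuccguu
miR-33b-3p: cAGUGCCUcggcagugcagccc
miR-1301-3p: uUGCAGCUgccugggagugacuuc
No seed recurred among these 16. Another 4 are shown because 3 of them share a seed with a miRNA of the first set (miR-33a-5p, miR-146b-5p and miR-26a-5p) and changed to another degree, and because miR-205-5p had the largest rise at any level.
miR-33b-5p: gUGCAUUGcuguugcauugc
miR-146a-5p: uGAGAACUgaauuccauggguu
miR-26b-5p: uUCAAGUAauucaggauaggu
miR-205-5p: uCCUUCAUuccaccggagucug
On GRCh38, with GENCODE 29 gene models, 3 of the rises lie as follows: miR-194-5p at chr11:64891404-64891425 (minus strand, an exon of MIR194-2HG), miR-34a-5p at chr1:9151735-9151756 (minus strand, an exon of MIR34AHG) and miR-33a-5p at chr22:41900949-41900969 (plus strand, an intron of SREBF2). Further rises are miR-146b-5p at chr10:102436520-102436541 (plus strand, no annotated host gene), miR-190a-5p at chr15:62823971-62823992 (plus strand, an intron of TLN2), miR-26a-5p at chr12:57824658-57824679 (minus strand, an intron of CTDSP2) and miR-210-3p at chr11:568112-568133 (minus strand, an intron of MIR210HG). The falls are miR-4521 at chr17:8186948-8186969 (plus strand, no annotated host gene), miR-335-3p at chr7:130496162-130496183 (plus strand, an intron of MEST), miR-942-5p at chr1:117094655-117094676 (plus strand, an intron of TTF2) and miR-15b-3p at chr3:160404645-160404666 (plus strand, an intron of SMC4). The remaining falls are miR-421 at chrX:74218392-74218414 (minus strand, an intron of FTX), miR-224-5p at chrX:151958631-151958651 (minus strand, GABRE, intronic or exonic by transcript), miR-33b-3p at chr17:17813857-17813878 (minus strand, an intron of SREBF1) and miR-1301-3p at chr2:25328651-25328674 (minus strand, an intron of DNMT3A). miR-194-5p and miR-26a-5p each have 2 copies in the genome, and the place given is that of the copy listed with the most reads over the 6 libraries, or the first listed where they tie. The other copy of miR-194-5p is intergenic.

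Serum starvation changed the levels of 264 of the 577 tested miRNAs, 45.8%. Of these, 147 rose (25.5% of those tested) and 117 fell (20.3%), and the change was over 2-fold for 58 of the rises and 57 of the falls. With TMM scaling, rises outnumbered falls among abundant miRNAs, and falls outnumbered rises among scarce ones. Of the 85 miRNAs of at least 1000 CPM, 42 rose and 7 fell, with a median change of 0.36. Of the 133 between 100 and 1000 CPM, 45 rose and 19 fell, with a median of 0.15. Of the 359 under 100 CPM, 60 rose and 91 fell, with a median of -0.24. For 317 of the 577 (54.9%) the 3 libraries of one group did not overlap those of the other.

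This split depends on the scale. TMM factors were 1.12 to 1.18 in 9.1% FBS and 0.86 to 0.87 in 0.1% FBS, so that CPM over plain library totals lowers every fold change, by a median of 0.41. On library totals 73 miRNAs rose (12.7%) and 248 fell (43.0%), and rises made up 22.7% of the calls in place of 55.7%. Falls then outnumbered rises at every level, with 18 rises and 28 falls at 1000 CPM or more, 19 and 52 between 100 and 1000 CPM, and 36 and 168 under 100 CPM. Which miRNAs rose or fell in amount per cell cannot be told from these counts. With the replicate block 192 rose (33.3%) and 175 fell (30.3%). Without both libraries numbered 1 the counts were 79 and 56, without those numbered 2 they were 78 and 41, and without those numbered 3 they were 183 and 162.

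**Figure D1:**
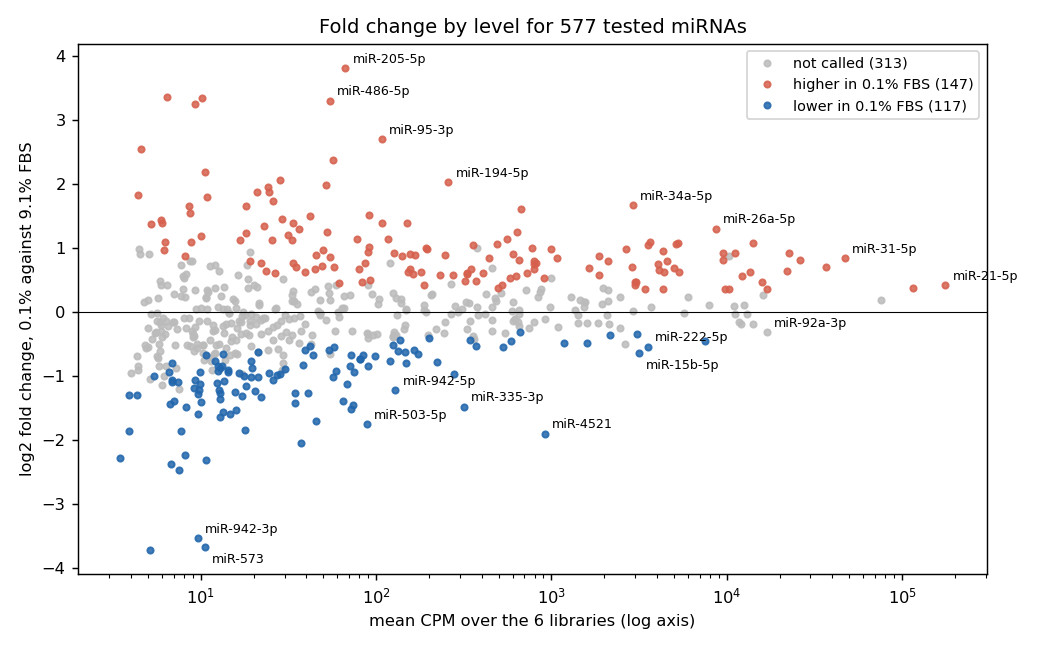
Each point is 1 of 577 miRNAs, with its mean CPM over the 6 libraries on a log axis and its log2 fold change of 0.1% against 9.1% FBS on the vertical axis; red points rose, blue points fell and grey points were not called. The right side, from 1000 CPM, holds 42 red and 7 blue points, and the left side, under 100 CPM, holds 60 red and 91 blue ones.

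The largest rise at 100 CPM or more was that of miR-95-3p. It stood at 27.2, 32.4 and 25.7 CPM in the libraries with 9.1% FBS and at 179, 193 and 186 CPM in those with 0.1% FBS. The replicates of each group lay close together and the groups were far apart, with a change of 2.71 ± 0.15 (edgeR adjusted p = 1.72e-05). It was 214 CPM in the untreated library.

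Of the miRNAs linked to p53, the tumour suppressor that halts the cell cycle under stress, 5 of 5 tested rose and 0 fell, against 25.5% and 20.3% of all tested. Their median change was 1.67 against -0.03 over all miRNAs tested. The list holds 9 miRNAs, the others being too scarce to test. The 5 are not separate genes, since they include both arms of miR-34a, and miR-194-5p and miR-192-5p of a shared transcript. miR-34a-5p, a direct p53 target whose own targets include cyclins and CDK genes, was at 1027, 1037 and 2115 CPM in 9.1% FBS and at 3814, 3869.7 and 5658 CPM in 0.1% FBS. Replicate 3 was the highest library of each group, yet the groups did not overlap, and the change was 1.67 ± 0.30 (edgeR adjusted p = 0.0024). Its other arm, miR-34a-3p, rose by 1.14 ± 0.16 (edgeR adjusted p = 6.87e-04), from 73.3 ± 11.1 to 162 ± 15.7 CPM (mean ± SD, n = 3). The related miR-34c-5p, encoded on another chromosome, is scarce here, with 11 reads summed over the 3 libraries in 9.1% FBS and 105 in 0.1% FBS, and it passed the test too (edgeR adjusted p = 4.67e-04).

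miR-194-5p and miR-192-5p, made from a shared transcript on chromosome 11 and known from gut and liver epithelium, also belong to that list. miR-194-5p stood at 82.2, 108 and 113 CPM in 9.1% FBS and at 424, 399.8 and 421 CPM in 0.1% FBS, a change of 2.04 ± 0.15 (edgeR adjusted p = 4.48e-05). miR-192-5p went from 45.2, 44.3 and 51.8 CPM to 139, 133 and 134 CPM, a change of 1.52 ± 0.14 (edgeR adjusted p = 1.15e-04). For both, each library in 0.1% FBS was above each in 9.1% FBS. miR-194-5p has a second copy on chromosome 1, and its reads cannot be assigned to either gene.

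**Figure D2:**
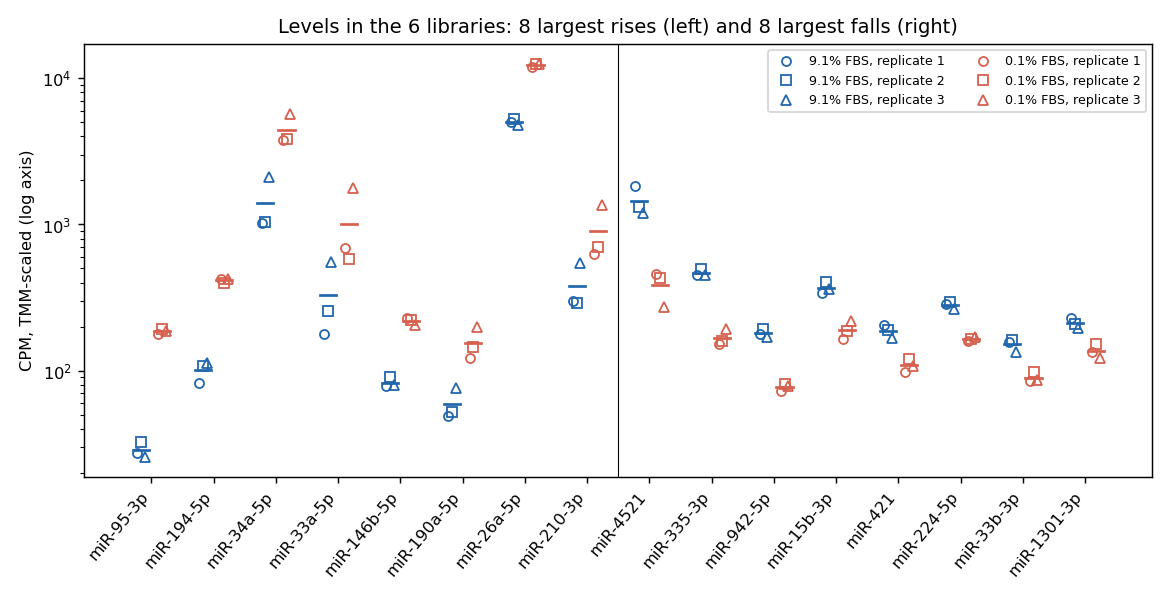
Levels of 16 miRNAs in TMM-scaled CPM on a log axis; circles, squares and triangles are replicates 1, 2 and 3, blue for 9.1% FBS and red for 0.1% FBS, and bars are group means. The 8 largest rises among miRNAs of at least 100 CPM are on the left and the 8 largest falls on the right, and within each miRNA the red and blue points do not overlap. The triangles stand above the other replicates in both groups for miR-33a-5p, miR-34a-5p, miR-190a-5p and miR-210-3p.

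The miRNAs housed in genes of lipid synthesis and coenzyme A supply rose as well, in 4 of 6 tested, while 1 fell, with a median of 1.03. The shares of all tested were 25.5% and 20.3%, with a median of -0.03. On library totals 2 rose and 1 fell. miR-33a-5p lies in an intron of SREBF2, the gene of the transcription factor that drives cholesterol synthesis, and is known to repress cholesterol export. It stood at 179, 255 and 556 CPM in 9.1% FBS and at 692, 576 and 1766 CPM in 0.1% FBS. The spread within groups was wide, with replicate 3 the highest of each, and the lowest library of 0.1% FBS lay just above the highest of 9.1% FBS. The change was 1.62 ± 0.51 (edgeR adjusted p = 0.029), and the call was lost without 9.1% FBS replicate 1 or 2 or 0.1% FBS replicate 1 or 3 (edgeR adjusted p = 0.053 to 0.12). Its other arm miR-33a-3p rose by 1.15 ± 0.22 (edgeR adjusted p = 0.0031).

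The second member of that seed, miR-33b, lies in SREBF1, whose product drives fatty acid synthesis. Its arms are given in turn. miR-33b-5p stood at 133, 194 and 419.6 CPM in 9.1% FBS and 409.9, 296 and 794 CPM in 0.1% FBS, with overlapping groups, and missed the threshold (change 1.01 ± 0.46, edgeR adjusted p = 0.11). With the replicate block it passed (edgeR adjusted p = 6.52e-22), a value that rests on variance pooled over miRNAs more than on these libraries. It also passed without 9.1% FBS replicate 3 (edgeR adjusted p = 0.011). miR-33b-3p fell, from 157, 163 and 134 CPM to 84.3, 98.2 and 86.1 CPM (change -0.75 ± 0.14, edgeR adjusted p = 0.0028). miR-107 in PANK1, a pantothenate kinase gene, rose from 2055, 2394 and 2439 CPM to 4713, 4625 and 4948 CPM (change 1.05 ± 0.11, edgeR adjusted p = 2.00e-04). The closely related miR-103a-3p of PANK2 and PANK3 rose by 0.57 ± 0.09 (edgeR adjusted p = 0.0012) and no longer passed on library totals (0.17, edgeR adjusted p = 0.1).

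Of the miRNAs linked to NF-kB and to stress, 6 of 8 tested rose and 0 fell, with a median of 0.85. The shares of all tested were 25.5% and 20.3%, with a median of -0.03. On library totals 4 of the list rose and 0 fell. miR-146b-5p, a known brake on NF-kB signalling, stood at 77.8, 90.1 and 79.7 CPM in 9.1% FBS and at 228, 223 and 205 CPM in 0.1% FBS, a change of 1.40 ± 0.13 (edgeR adjusted p = 1.25e-04). miR-146a-5p, which shares its seed and is transcribed from another gene, was near the limit of detection with 12 reads in the 3 libraries of 9.1% FBS and 42 in those of 0.1% FBS, and passed the test (edgeR adjusted p = 0.0029). miR-210-3p, the miRNA best known for its induction by hypoxia-inducible factors, was at 298, 288 and 547 CPM in 9.1% FBS and at 623, 700.0 and 1367 CPM in 0.1% FBS. Replicate 3 was again the highest of each group. Its change was 1.25 ± 0.34 (edgeR adjusted p = 0.017), and the call was lost without 9.1% FBS replicate 1 or 2 or 0.1% FBS replicate 3 (edgeR adjusted p = 0.063 to 0.083). miR-31-5p, one of the most abundant miRNAs of these cells, rose from 33901, 36682 and 29995 CPM to 63485, 61489 and 56141 CPM (change 0.85 ± 0.10, edgeR adjusted p = 4.67e-04).

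miR-26a-5p, a known repressor of EZH2 and of cyclins, was the most abundant of the 8 largest rises. It lies in introns of CTDSP2 and CTDSPL, genes of small phosphatases, and stood at 4988, 5245 and 4783 CPM in 9.1% FBS and at 12027, 12606 and 12493 CPM in 0.1% FBS. The change was 1.31 ± 0.09 (edgeR adjusted p = 4.48e-05), and 1.36 ± 0.19 for miR-26a-2-3p, the other arm of the CTDSP2 copy (edgeR adjusted p = 8.60e-04). miR-26b-5p of CTDSP1, with the same seed, had a change of 0.36 ± 0.11 (edgeR adjusted p = 0.026), lost that call without 9.1% FBS replicate 1 or 2 (edgeR adjusted p = 0.069 to 0.1), and was at -0.05 on library totals.

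miR-151b, which differs little in sequence from miR-151a-5p so that reads may be shared between them, rose from 338, 380.0 and 321 CPM to 831, 762 and 698 CPM (change 1.14 ± 0.13, edgeR adjusted p = 2.95e-04). Of the remaining large rises, miR-190a-5p, in an intron of TLN2 (the gene of the adhesion protein talin 2), went from 49.1, 52.4 and 76.5 CPM to 123, 145 and 199 CPM, without overlap (change 1.39 ± 0.23, edgeR adjusted p = 0.0019). miR-425-5p and miR-191-5p, neighbours in an intron of DALRD3, rose by 1.10 ± 0.11 and 0.92 ± 0.16 (edgeR adjusted p = 1.87e-04 and 0.0021). miR-125b-5p, miR-100-5p and let-7c-5p rose by 1.09 ± 0.14, 0.93 ± 0.13 and 1.07 ± 0.20 (edgeR adjusted p = 6.31e-04, 7.51e-04 and 0.0031). The genes of these miRNAs sit in the MIR100HG and MIR99AHG host transcripts, which hold paralogous clusters, and the second copy of miR-125b-5p means that its reads cannot be assigned to MIR100HG alone. miR-99a-5p of the MIR99AHG cluster rose too, by 1.25 ± 0.29 (edgeR adjusted p = 0.0087). miR-181a-5p, a regulator of lymphocyte signalling, was at 3284, 3306 and 3309 CPM in 9.1% FBS and at 7219, 7038 and 6586 CPM in 0.1% FBS (change 1.07 ± 0.09, edgeR adjusted p = 1.02e-04). miR-181b-5p, made from the same 2 loci and with the same seed, was at 0.08 ± 0.10 (edgeR adjusted p = 0.53), which turned to -0.32 on library totals.

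The largest fall at 100 CPM or more was that of miR-4521, an intergenic miRNA of chromosome 17. It stood at 1819, 1309 and 1191 CPM in 9.1% FBS and at 460.5, 432 and 271 CPM in 0.1% FBS. Each library in 0.1% FBS was lower than each in 9.1% FBS, and the change was -1.89 ± 0.23 (edgeR adjusted p = 4.75e-04). The untreated library held 1110.1 CPM. The same miRNA had a change of 2.18 with p140 against full-length DROSHA in the knockout cells.

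Both arms of miR-335, in an intron of the imprinted gene MEST, fell, and by different amounts. miR-335-3p stood at 452, 495 and 454 CPM in 9.1% FBS and at 152, 159 and 192 CPM in 0.1% FBS (change -1.48 ± 0.13, edgeR adjusted p = 1.25e-04). miR-335-5p went from 429.9, 483 and 401 CPM to 278, 324 and 305 CPM (change -0.53 ± 0.13, edgeR adjusted p = 0.0092). miR-942-5p of TTF2, a gene of a transcription termination factor, went from 178, 194 and 169 CPM to 72.6, 80.6 and 78.7 CPM (change -1.22 ± 0.13, edgeR adjusted p = 2.27e-04), and its scarce 3p arm from 113 reads in the 3 libraries of 9.1% FBS to 9 in those of 0.1% FBS. miR-15b, in an intron of SMC4, the gene of a condensin subunit needed for mitosis, fell on both arms. miR-15b-5p, which targets BCL2 and cyclins, went from 3638, 4104 and 3744 CPM to 2201, 2444 and 2728 CPM (change -0.64 ± 0.11, edgeR adjusted p = 0.0026), and miR-15b-3p from 338, 405 and 364 CPM to 163, 186 and 219 CPM (change -0.96 ± 0.15, edgeR adjusted p = 0.0012).

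Falls of smaller size were measured for miR-421 (-0.79 ± 0.14), miR-224-5p (-0.77 ± 0.12), miR-1301-3p (-0.65 ± 0.14) and miR-550a-3p (-0.61 ± 0.12). All 4 had groups without overlap and an edgeR adjusted p between 0.0012 and 0.0055. miR-224-5p stood at 286, 295 and 263 CPM in 9.1% FBS and 160.2, 165 and 170.2 CPM in 0.1% FBS. The GABRE gene that hosts it also hosts miR-452. Of the 4 tested miRNAs of this cluster 3 fell while 0 rose, with a median of -0.80, against 20.3% lower among all tested. The call of miR-452-3p among the 3 was lost without 9.1% FBS replicate 1 or 3 or 0.1% FBS replicate 1 or 2 (edgeR adjusted p = 0.071 to 0.16). The call of miR-149-5p (-0.55 ± 0.16, edgeR adjusted p = 0.021) was lost without 9.1% FBS replicate 2 or 0.1% FBS replicate 2 or 3 (edgeR adjusted p = 0.0505 to 0.075). The falls of miR-3200-3p (-0.58 ± 0.15) and miR-222-5p (-0.54 ± 0.11) complete the 15 largest, with miR-19b-1-5p, described with its cluster.

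The most abundant miRNA was miR-21-5p, an oncogenic miRNA made from the VMP1 locus, at 134182, 151449 and 165398 CPM in 9.1% FBS and 197822, 189835 and 218446 CPM in 0.1% FBS. It rose by 0.43 ± 0.10 (edgeR adjusted p = 0.0099) and stood at 0.02 on library totals, and the call was lost without 9.1% FBS replicate 1 (edgeR adjusted p = 0.068). In the untreated library it was 561204 CPM, far above either group. miR-222-3p, which with miR-221-3p represses the cell cycle inhibitor p27, was at 107577, 104350.1 and 89976 CPM in 9.1% FBS and 136924, 136931 and 117792 CPM in 0.1% FBS, a change of 0.38 ± 0.10 (edgeR adjusted p = 0.018) that became -0.033 on library totals. miR-221-3p had a change of 0.19 ± 0.08 and missed the threshold (edgeR adjusted p = 0.077); with the replicate block it passed (edgeR adjusted p = 7.10e-04), and on library totals it was lower, at -0.21. Of the other 7 most abundant, let-7a-5p (0.71 ± 0.10), miR-29a-3p (0.82 ± 0.17), miR-100-5p (0.93 ± 0.13), miR-200c-3p (0.65 ± 0.13), miR-31-5p and let-7f-5p (0.36 ± 0.09) rose. miR-92a-3p had a change of -0.31 ± 0.14 (edgeR adjusted p = 0.094), passed with the replicate block (edgeR adjusted p = 3.69e-06), and passed without 9.1% FBS replicate 3 (edgeR adjusted p = 0.017). On library totals let-7f-5p turned to -0.04, and miR-29a-3p (0.41) and miR-200c-3p (0.24) no longer passed.

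The miR-200 family holds epithelial cells in their state by repressing ZEB1 and ZEB2. Of the 9 tested miRNAs of its clusters 7 rose, 4 of 5 on chromosome 1 and 3 of 4 on chromosome 12, and 0 fell. With miR-205-5p, which the list holds beside the family, 8 of 10 rose, with a median of 0.64, against 25.5% and -0.03 over all tested. miR-200a-3p stood at 2801, 3121 and 4218 CPM in 9.1% FBS and at 6878, 6398 and 8229 CPM in 0.1% FBS, without overlap (change 1.08 ± 0.17, edgeR adjusted p = 0.0013). miR-200b-3p and miR-429, its neighbours on chromosome 1, rose by 0.70 ± 0.09 and 0.58 ± 0.10 (edgeR adjusted p = 6.19e-04 and 0.0026). miR-141-3p of the chromosome 12 cluster was at 8524, 9682 and 13710.0 CPM and 14765, 13221 and 21287 CPM, with overlapping groups, a change of 0.63 ± 0.22 (edgeR adjusted p = 0.043) and a call lost without 9.1% FBS replicate 1 or 2 or 0.1% FBS replicate 1 or 3 (edgeR adjusted p = 0.096 to 0.18). On library totals 3 of the 10 rose and 0 fell. The largest change in the list was that of miR-205-5p, which is transcribed from its own locus and also represses ZEB genes. It stood at 7.30, 6.20 and 12.6 CPM in 9.1% FBS and at 134, 122 and 117 CPM in 0.1% FBS (change 3.82 ± 0.24, edgeR adjusted p = 3.25e-05). miR-205-5p was singled out after its values were seen, as its mean lies under 100 CPM, and its untreated level was 50.1 CPM.

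The let-7 family, which represses RAS and MYC and marks differentiated cells, rose in 6 of 9 members tested and fell in 0, with a median of 0.36. Over all 577 tested, 25.5% rose and 20.3% fell, with a median of -0.03. Among the 85 miRNAs of at least 1000 CPM, 42 rose and 7 fell, and the median was also 0.36. let-7b-5p, from the MIRLET7BHG transcript, stood at 7969, 8405 and 6639.8 CPM in 9.1% FBS and at 15137, 16408 and 12434 CPM in 0.1% FBS (change 0.93 ± 0.14, edgeR adjusted p = 9.34e-04). let-7g-5p rose by 0.36 ± 0.10 (edgeR adjusted p = 0.015), lost the call without 9.1% FBS replicate 1 (edgeR adjusted p = 0.083), and turned to -0.05 on library totals. let-7f-5p lost its call without 9.1% FBS replicate 1 (edgeR adjusted p = 0.054). On library totals 4 members of the list rose and 2 fell. Mature members of this family differ at few bases, so that reads may be shared among them.

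The HOX-linked miR-10a-5p and miR-10b-5p, which lie beside HOX genes of chromosomes 17 and 2, rose by 0.99 ± 0.12 and 0.91 ± 0.12 (edgeR adjusted p = 3.97e-04 and 6.87e-04). The miR-196 members of other HOX clusters did not pass: miR-196a-5p was at -0.25 ± 0.12 and miR-196b-5p at -0.17 ± 0.10. In the list as a whole 3 of 8 rose and 0 fell. Of the miR-30 family 5 of 10 rose and 3 fell, and of the miR-23, miR-27 and miR-24 clusters 4 of 11 rose and 0 fell. Of miR-29, whose members repress collagens and DNA methyltransferases, 2 of 7 rose and 1 fell. miR-29b-3p (0.88 ± 0.35, edgeR adjusted p = 0.067) missed the threshold. It passed with the replicate block (edgeR adjusted p = 7.24e-35, again resting on pooled variance) and without 9.1% FBS replicate 3 (edgeR adjusted p = 0.011). Of the miR-183, miR-96 and miR-182 cluster 2 of 6 rose and 0 fell, and of miR-181 4 of 8 rose and 0 fell. These medians lay between 0.27 for miR-23, miR-27 and miR-24 and 0.60 for miR-181, against -0.03 over all tested. Of all 577 tested, 25.5% rose and 20.3% fell. The rises of miR-30b-5p, miR-30d-5p, miR-27b-3p and miR-29b-1-5p were each lost without some single library (edgeR adjusted p = 0.052 to 0.095). The counts of these lists also depended on the scale. On library totals, where the median of all tested was -0.44, 0 rose and 3 fell of the miR-23, miR-27 and miR-24 clusters and of the miR-30 family, 0 rose and 2 fell of miR-29, 0 rose and 0 fell of the miR-183 cluster, 3 rose and 2 fell of miR-181, and 3 rose and 2 fell of the HOX list.

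**Figure D3:**
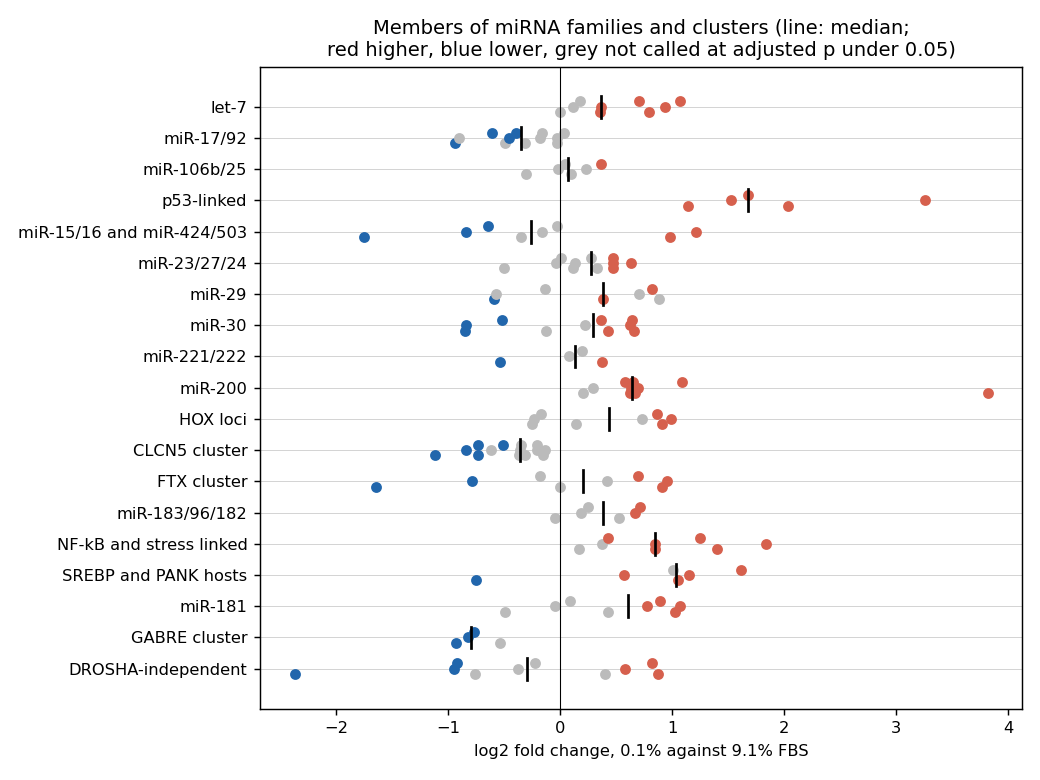
Each point is a tested member of the list named at the left, at its log2 fold change of 0.1% against 9.1% FBS; red rose, blue fell, grey was not called, and the vertical line is the list's median. The p53-linked, miR-200 and NF-kB lists hold only red and grey points, while the miR-17/92, CLCN5 and GABRE clusters hold only blue and grey ones.

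The miR-17/92 cluster of MIR17HG, a known MYC and E2F target that promotes proliferation, had 4 of 12 tested members lower and 0 higher, with a median of -0.35. Of all tested miRNAs 20.3% were lower. With the replicate block 9 of 12 were lower, against 30.3% of all tested. Without both libraries numbered 3 the cluster also had 9 lower, against 148 of all 577. Within it miR-19a-3p fell from 7853, 8428 and 9788 CPM to 5791, 5747 and 7507 CPM (change -0.45 ± 0.14, edgeR adjusted p = 0.026), a call lost without 9.1% FBS replicate 2 or 3 or 0.1% FBS replicate 1 or 2 (edgeR adjusted p = 0.057 to 0.16). miR-19b-1-5p and miR-92a-1-5p, the minor arms of their hairpins, fell by 0.61 and 0.94 on the log2 scale (edgeR adjusted p = 0.016 and 0.0021), the first of these calls being lost without 9.1% FBS replicate 2 or 0.1% FBS replicate 1 or 2 (edgeR adjusted p = 0.057 to 0.1). The remaining fall, that of miR-18a-3p, was lost without 9.1% FBS replicate 1 or 2 or 0.1% FBS replicate 1, 2 or 3 (edgeR adjusted p = 0.065 to 0.1). miR-17-5p was at -0.16 ± 0.13 and miR-20a-5p at -0.03 ± 0.18, and neither passed. The 5 tested miRNAs with the shared seed of miR-17-5p, miR-20a-5p, miR-93-5p, miR-106a-5p and miR-106b-5p held 40821 CPM together in 9.1% FBS and 40974 CPM in 0.1% FBS, and 0 of 5 were called. In the paralogous miR-106b/25 cluster of MCM7, a gene of the replicative helicase, 1 of 6 rose and 0 fell: miR-25-3p, by 0.36 ± 0.10 (edgeR adjusted p = 0.015), which turned to -0.04 on library totals.

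The miR-15/16 seed group, which targets cell cycle genes, was mixed. miR-15b-5p fell, as above, while miR-195-5p and miR-497-5p of the MIR497HG transcript rose by 0.98 ± 0.19 and 1.21 ± 0.23 (edgeR adjusted p = 0.0038 and 0.0029). miR-16-5p, the most abundant of the group, stood at 12816, 13659 and 13247 CPM in 9.1% FBS and 12333, 13449.6 and 13158 CPM in 0.1% FBS, with overlapping groups and a change of -0.03 ± 0.09 (edgeR adjusted p = 0.81). On library totals it was lower, at -0.44 (edgeR adjusted p = 0.0024). miR-503-5p, a relative of this group made with miR-424, fell the most, from 139, 119.7 and 149.9 CPM to 40.2, 38.4 and 42.9 CPM (change -1.75 ± 0.15, edgeR adjusted p = 1.02e-04). Its sequence is set below that of miR-15b-5p.
miR-15b-5p: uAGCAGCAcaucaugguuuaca
miR-503-5p: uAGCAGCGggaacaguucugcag
The locus of miR-503 on chromosome X, which also holds miR-424, miR-542 and miR-450, had 7 tested members. Of these 4 fell and 0 rose, with a median of -0.66, against 20.3% lower among all tested. miR-450b-5p fell from 25.8, 26.7 and 21.6 CPM to 9.08, 7.11 and 13.2 CPM (change -1.31 ± 0.26, edgeR adjusted p = 0.0039), and miR-424-5p, at -0.35 ± 0.18 (edgeR adjusted p = 0.14), passed with the replicate block (edgeR adjusted p = 0.0032). miR-503-5p, miR-450b-5p, miR-195-5p and miR-497-5p were singled out after their values were seen.

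The CLCN5 cluster, a series of miRNA hairpins in introns of a chloride transporter gene on chromosome X, had 5 of 14 tested members lower and 0 higher, with a median of -0.36. With the replicate block 10 were lower, without both libraries numbered 3 also 10, and on library totals all 14. Among all 577 tested, 20.3% were lower in the main fit and 30.3% with the block. The general count was 148 without both libraries numbered 3, and the share 43.0% on library totals. In this cluster miR-501-5p fell the most of those past the threshold, from 113, 90.1 and 76.5 CPM to 43.5, 48.8 and 36.7 CPM (change -1.12 ± 0.19, edgeR adjusted p = 0.0021). Its more abundant neighbours miR-532-5p (-0.15 ± 0.11), miR-660-5p (-0.13 ± 0.12) and miR-362-3p (-0.20 ± 0.14) did not pass. The FTX cluster, in introns of a long non-coding RNA, was split, with 3 of 8 higher and 2 lower, against 25.5% and 20.3% of all tested. miR-374a-5p rose from 2757, 3001 and 3102 CPM to 5695, 5734 and 5789 CPM (change 0.96 ± 0.10, edgeR adjusted p = 1.87e-04), while miR-421, from the same host, fell from 204, 189.8 and 167 CPM to 97.3, 121 and 107 CPM (change -0.79 ± 0.14, edgeR adjusted p = 0.0027). Of 22 loci with at least 4 tested miRNAs, 17 held 2 or more calls, and of these 9 held only rises, 5 only falls and 3 both. A further 4 held 1 call and 1 held none. On library totals, counting loci with any call, 4 held only rises, 14 only falls, 1 both and 3 no call. The 3 with both were the miR-30b and miR-30d locus, the miR-221 and miR-222 locus and the part of FTX that holds miR-374a and miR-545.

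Several large changes were found among scarce miRNAs. Of those given here, miR-328-3p, miR-573 and miR-4745-5p were singled out after their values were seen. miR-486-5p, abundant in red blood cells, went from 10.7, 10.5 and 8.55 CPM to 114, 109.5 and 72.5 CPM (change 3.31 ± 0.24, edgeR adjusted p = 4.48e-05). miR-328-3p went from 21.4, 19.1 and 13.96 CPM to 99.9, 115 and 70.5 CPM (change 2.39 ± 0.24, edgeR adjusted p = 2.05e-04) and miR-143-3p, typical of smooth muscle, from 11.2, 10.01 and 11.3 CPM to 41.5, 53.6 and 41.6 CPM (change 2.07 ± 0.20, edgeR adjusted p = 1.87e-04). Of the other direction, miR-573 of DHX15 had 125 reads over 3 libraries in 9.1% FBS and 9 in 0.1% FBS, and miR-4745-5p of PTBP1 had 60 and 4. Both passed the test (edgeR adjusted p = 2.74e-04 and 0.0012). miR-34c-5p, miR-146a-5p, miR-26b-5p and miR-501-5p, given above, were likewise named after their values were seen. For the marker lists that follow, the shares of all 577 tested are 25.5% higher and 20.3% lower. Among markers of blood cells, 4 of 5 tested rose and 0 fell. Without TMM scaling the list's sum was 59.4 to 78.9 CPM in 9.1% FBS and 206 to 227 CPM in 0.1% FBS. Its red cell marker miR-451a had 2 to 8 reads per library in 9.1% FBS and 8 to 21 in 0.1% FBS. Its 4 rises were both arms of miR-486 and both of miR-142, the latter a marker of white blood cells. Other white cell markers had fewer reads in 0.1% FBS, without overlap, and are named here after their values were seen: miR-150-5p had 11, 14 and 11 reads in 9.1% FBS and 7, 6 and 5 in 0.1% FBS, and miR-223-3p 8, 17 and 6 against 2, 5 and 2. The change of miR-150-5p was -0.90 ± 0.37 (edgeR adjusted p = 0.076), it passed as lower on library totals (edgeR adjusted p = 0.016), and miR-223-3p was too scarce to be tested. Their part in the results above was not tested. Markers of pluripotent cells summed, without TMM scaling, to 17.8 to 21.9 CPM in 9.1% FBS and 2.48 to 4.12 CPM in 0.1% FBS. None of them was abundant enough to be tested. Of the neural list 0 of 3 tested rose and 1, miR-9-3p, fell (change -0.31 ± 0.11, edgeR adjusted p = 0.048), a call lost without 9.1% FBS replicate 2 or 3 or 0.1% FBS replicate 1 or 2 or 3 (edgeR adjusted p = 0.053 to 0.21). With the replicate block 1 rose and 2 fell, and on library totals 0 rose and 2 fell. Without TMM scaling the neural list summed to 3593 to 3786 CPM in 9.1% FBS and 2354 to 2499 CPM in 0.1% FBS. That scale by itself lowers every fold change. Of the fibroblast and smooth muscle list 3 of 5 rose and 1 fell, and on library totals 1 rose and 2 fell. Its sum without TMM scaling, 1497 to 1899 CPM in 9.1% FBS and 1313 to 1402 CPM in 0.1% FBS, belongs to the second scale. The muscle marker miR-499a-5p, the only one of its list to be tested, rose by 1.20 ± 0.34 (edgeR adjusted p = 0.02), a call lost without 9.1% FBS replicate 1 or 2 or 0.1% FBS replicate 1 or 3 (edgeR adjusted p = 0.057 to 0.079).

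Arm use was compared as log2 of the 5p over the 3p reads of the same miRNA name, which no library scaling can alter. Such a pair is called a hairpin here. Where an arm is listed under several hairpins, its reads may come from more than 1 of them, so that the ratio can mix hairpins. Of 163 hairpins with a mean of at least 10 reads on each arm, 19 (11.7%) changed by limma's moderated test (adjusted p under 0.05), 47 had an unadjusted p under 0.05, and with the replicate block 52 changed. In 16 of the 19 the arm that was already dominant in the untreated library gained, and in 3 (miR-545, miR-1343 and miR-101) the minor arm gained. The untreated library is single and some of these arms had few reads in it: 4 on the 5p and 3 on the 3p arm of miR-1343, 13 and 5 for miR-545, 9 and 13 for miR-4707, and 0 and 11 for miR-1226. For miR-4707 the 5p arm, minor by those reads, held 72.5% in 9.1% FBS and 41.8% in 0.1% FBS. Of the 15 changed hairpins with at least 30 untreated reads, a minimum chosen after seeing the data, 14 moved toward the dominant arm. Over the 160 hairpins with unequal arms in the untreated library, 109 (68.1%) moved toward the dominant arm, by a median of 0.16 on the log2 scale. The count of 19 depended on single libraries: it was 8 without 9.1% FBS replicate 1, 6 without 9.1% FBS replicate 2, 12 without 0.1% FBS replicate 1 and 11 without 0.1% FBS replicate 2. It was 0 without both libraries numbered 1, 4 without those numbered 2 and 26 without those numbered 3.

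The hairpins of miR-222, miR-335 and miR-92b are shown with both arms in capitals, because their arm shares changed with many reads behind them (RefSeq, GRCh38.p14).
mir-222: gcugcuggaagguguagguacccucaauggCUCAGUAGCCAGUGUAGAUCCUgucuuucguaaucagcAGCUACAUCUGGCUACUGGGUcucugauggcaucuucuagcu
mir-335: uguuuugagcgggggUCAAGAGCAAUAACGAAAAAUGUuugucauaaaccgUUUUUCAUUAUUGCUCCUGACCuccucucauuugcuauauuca
mir-92b: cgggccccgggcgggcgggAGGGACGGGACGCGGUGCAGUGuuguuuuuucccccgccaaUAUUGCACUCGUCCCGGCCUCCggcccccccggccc
In miR-222 the 5p arm made up 3.7%, 4.33% and 3.96% of the hairpin's reads in 9.1% FBS and 2.05%, 2.06% and 2.41% in 0.1% FBS, so that the first 3 values all lay above the last 3 (change in log2 ratio -0.90 ± 0.12, limma adjusted p = 0.0054). The 3p arm had risen and the 5p arm had fallen, as given above. In miR-335 the 5p arm made up 48.7%, 49.4% and 46.9% in 9.1% FBS and 64.7%, 67.1% and 61.4% in 0.1% FBS, which turned near equality of the arms into a surplus of 5p (change in log2 ratio 0.95 ± 0.13, limma adjusted p = 0.0054). In miR-92b, a relative of miR-92a encoded on chromosome 1, the 5p arm went from 5.65%, 5.32% and 5.44% to 2.72%, 3.05% and 2.42% (change in log2 ratio -1.04 ± 0.15, limma adjusted p = 0.0054), with both arms lower in CPM. The fall of miR-92b-3p (-0.48 ± 0.14, edgeR adjusted p = 0.026) was lost without 9.1% FBS replicate 1 or 2 or 0.1% FBS replicate 3 (edgeR adjusted p = 0.054 to 0.072). Of hairpins with fewer reads, miR-942 went from 91% ± 0.57 to 98.1% ± 0.73 5p, miR-301b from 9.33% ± 0.49 to 2.91% ± 0.96 and miR-545, in FTX, from 57.7% ± 3.73 to 30.9% ± 3.72 (means ± SD, n = 3).

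**Figure D4:**
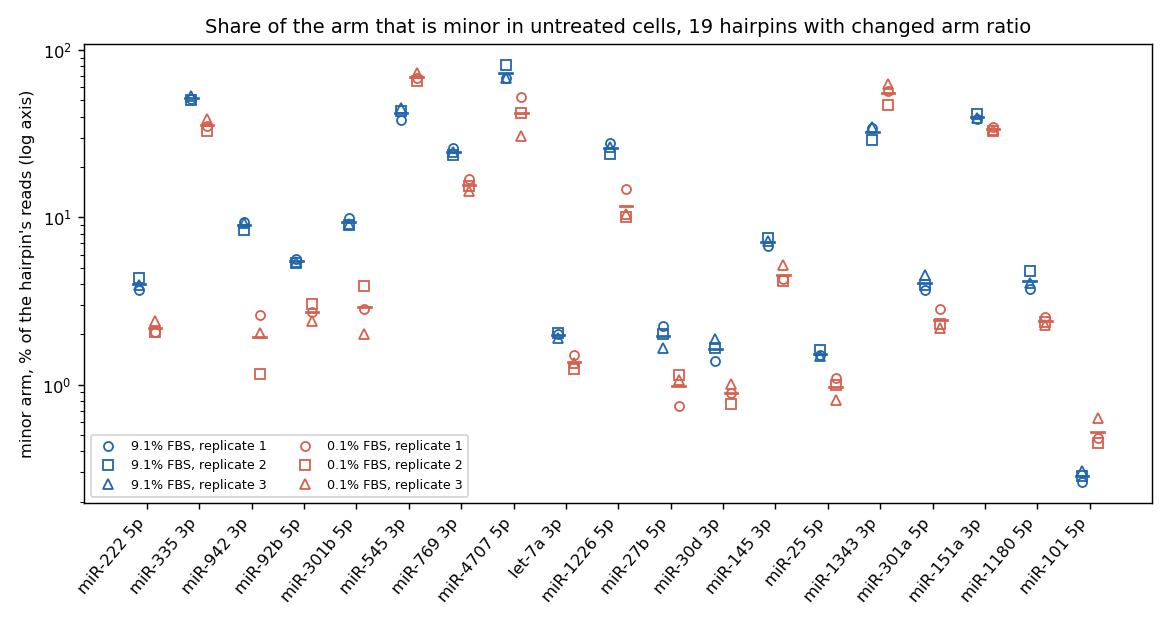
For the 19 hairpins whose arm ratio changed, the share of reads on the arm that is minor in the untreated library is plotted on a log axis, with circles, squares and triangles for replicates 1, 2 and 3, blue for 9.1% FBS, red for 0.1% FBS and bars for means. Red points lie below blue ones for 16 hairpins and above them for miR-545, miR-1343 and miR-101.

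Hairpins were placed on GENCODE 29 gene models, since the series concerns miRNAs of introns. Of 345 tested miRNAs from introns 81 rose and 75 fell, with a median of -0.08. Of 142 from exons or outside genes 49 rose and 21 fell, with a median of 0.26, so that the intronic median was lower by 0.34 on the log2 scale. The remaining 90, whose transcripts or copies place them in more than 1 class, are left out of this comparison: 17 rose and 21 fell, with a median of -0.16. Counted with the others, an alternative chosen after seeing the data, they bring the difference to -0.13. Over these miRNAs the mean log2 CPM of the intronic ones exceeded that of the others by 0.28, 0.24 and 0.28 in the 3 libraries with 9.1% FBS, and the same difference was -0.06, -0.06 and 0.05 in those with 0.1% FBS. The libraries of the groups did not overlap in this value. The difference in medians does not change with library scaling, being -0.34 on library totals also. It was -0.17 with no filter on low counts and -0.24 with a mean of at least 100 reads, so that its size varies with the miRNAs admitted. Host genes cover many functions, and members of 1 cluster share a host, so that these miRNAs are not independent of each other.

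The same classes were set beside the effect of p140, relative to full-length DROSHA, in the knockout HCT116 cells, tested the same way on 3 other libraries per form. There the median of 234 intronic miRNAs tested in both comparisons was -0.64 and that of 99 exonic or intergenic ones 0.26. The starvation medians of these same miRNAs were 0.05 and 0.25, a difference of -0.20 in place of -0.34, and the 45 exonic ones among them had a median of 0.0057. Across the 396 miRNAs tested in both, the 2 log2 fold changes had a Pearson r of -0.01 and a Spearman rho of 0.03, given as a description, since miRNAs are not independent replicates. Of the 139 miRNAs lower with p140 (35.1% of the 396), 30 (21.6%) fell and 34 (24.5%) rose under starvation, against 19.7% and 30.8% of all 396. Of the 79 higher with p140 (19.9%), 17 fell and 24 rose under starvation. The intronic miR-374a-5p (-3.47 with p140) and miR-425-5p (-1.56) rose under starvation, whereas miR-421 (-4.16) and miR-1301-3p (-3.42) were lower in both. miR-4521 was higher with p140 and lower under starvation.

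**Figure D5:**
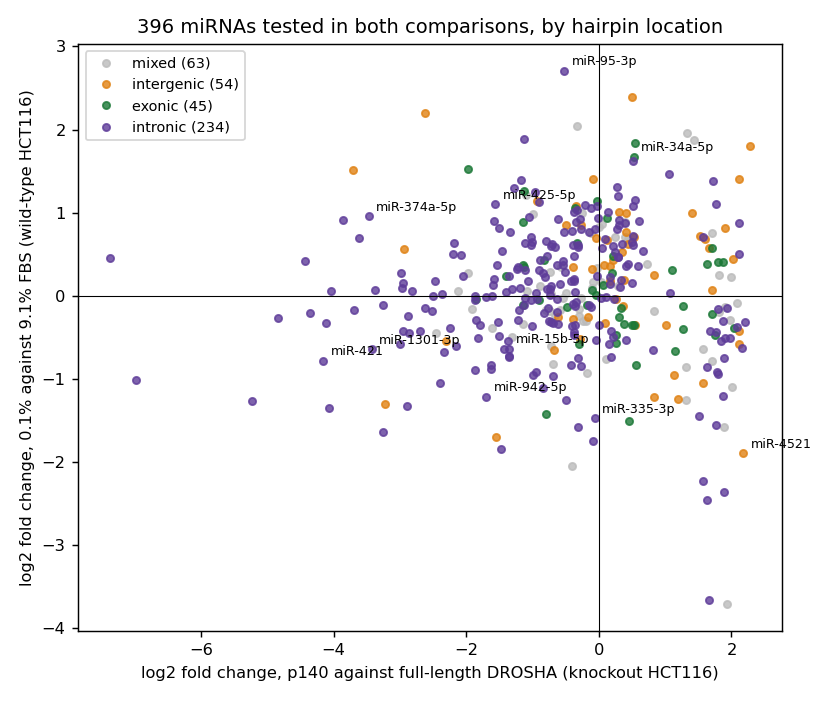
Each point is 1 of 396 miRNAs tested in both comparisons, with its log2 fold change under p140 relative to full-length DROSHA (knockout cells) on the horizontal axis and of 0.1% against 9.1% FBS in wild-type HCT116 on the vertical axis, coloured by the location of its hairpin. Intronic miRNAs (purple) extend far to the left, down the p140 axis, and spread to both sides of 0 on the starvation axis, with r = -0.01 over all points.

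miRNAs known to be made without DROSHA, such as mirtrons and capped hairpins, had 3 of 10 tested higher and 3 lower, with a median of -0.30. Of all tested miRNAs 25.5% were higher and 20.3% lower, so these counts lie near the general share. The rise of miR-3615 among them was lost without 9.1% FBS replicate 2 or 3 or 0.1% FBS replicate 1 or 2 (edgeR adjusted p = 0.053 to 0.088). On library totals 0 were higher and 6 lower (12.7% and 43.0% of all tested). With the replicate block 3 were higher and 6 lower (33.3% and 30.3% of all tested). miR-320a rose from 7988, 6856 and 5825 CPM to 12966, 14012 and 9422 CPM (change 0.82 ± 0.17, edgeR adjusted p = 0.0048), which no longer passed on library totals (0.41, edgeR adjusted p = 0.079). The mirtron miR-1226-3p fell by 0.94 and its 5p arm by 2.37 on the log2 scale (edgeR adjusted p = 0.0089 and 0.0011). miR-877-5p, another mirtron, was at -0.37 ± 0.24 and miR-484 at -0.23 ± 0.17; neither passed.

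The untreated wild-type library, whose serum content and time the labels used here do not give, was set beside the 2 groups as a description. Of the 113 called miRNAs of at least 100 CPM it lay nearer to the 0.1% FBS mean for 80, namely for 64 of 87 that rose and 16 of 26 that fell. Its Pearson r of log2 CPM over 218 miRNAs was 0.943 to 0.947 with the libraries of 9.1% FBS and 0.959 to 0.965 with those of 0.1% FBS. It holds 856658 reads and has no replicate.

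The median GC content of the mature sequence was 47.6% for rises, 54.4% for falls and 50% for all tested (507 of 577 with a RefSeq sequence). Among miRNAs of at least 100 CPM the medians were 46.4% and 47.7%, against 47.6% for all at that level. Whether GC content bears on the counts was not tested.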

How the data were processed

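Small RNA libraries were analysed of wild-type HCT116 cells, 3 labelled 0.1% FBS and 3 labelled 9.1% FBS. Per the labels' protocols, RNA was size-selected on a gel, ligated to randomized adaptors and sequenced. The tools named, per the submitters' processing notes, are STAR, cutadapt and bedtools with hg38. Their versions and the handling of multi-mapped reads were not given in the sources used here. What the authors deposited are raw whole-number counts per mature miRNA and hairpin, 2813 per library, with no spike-in listed. For 167 miRNAs listed under several hairpins the copy with the highest total was kept. Totals were 1745626 to 2822316 reads; use of the random adaptor bases as molecular identifiers is not stated, so this depth bears on counting error alone.

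The main test of the counts was the quasi-likelihood test of edgeR 4.0.16, run in R 4.3.3 (TMM, filterByExpr with a minimum count of 10, Benjamini-Hochberg, two-sided), and log2 arm ratios, with 0.5 reads added, with limma 3.58.1. The standard error of a change in counts was derived from edgeR's F statistic, as the size of the change over the square root of F. DESeq2 1.42.0 was an alternative. The scripts were tested on simulated data. Replicate numbers come from the sample titles. Same-numbered libraries deviated together (r = 0.68, 0.59 and 0.90), but the number matched best for replicate 3 alone. 9.1% FBS replicate 1 correlated more with 0.1% FBS replicate 2 (0.79), and 9.1% FBS replicate 2 more with 0.1% FBS replicate 1 (0.66), than with their own numbers. The block is therefore given as an alternative only, and pairing of replicates 1 and 2 by number is not shown.

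The miRNAs named are the 15 largest rises and falls of at least 100 CPM without overlap of the groups, their other arms and neighbours within 10 kb, the 10 most abundant, up to 4 members of each list, and up to 8 hairpins with the largest arm changes; others are said to be chosen after their values were seen. The members and lists were chosen with earlier results of these data known. Lists are described by counts and medians, with no test of the list. Alternatives were library totals, DESeq2's size factors and test, other filters, summed copies, the replicate block and leaving out libraries. RefSeq sequences matched 507 of 577 tested miRNAs, and for 8 the interval in the tables differs from RefSeq's, so the sequence at the tables' coordinates was taken. Libraries of HEK293E cells and of knockout cells with GFP were not used here. The host gene and position of 1 miRNA are not reported here.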

Additional observations from a re-analysis of the deposited data

How the results depend on the processing

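Library totals in place of TMM changed most: 73 miRNAs rose and 248 fell, in place of 147 and 117. Among named miRNAs, 14 were counted as turned to lower, namely let-7f-5p (-0.043), let-7g-5p (-0.048), miR-106b-3p (-0.36), miR-145-5p (-0.37), miR-181b-5p (-0.32), miR-20a-3p (-0.37), miR-221-3p (-0.21), miR-222-3p (-0.033), miR-24-3p (-0.29), miR-25-3p (-0.044), miR-26b-5p (-0.048), miR-29b-1-5p (-0.024), miR-30d-5p (-0.046) and miR-93-5p (-0.31). These 14 are not every change of sign: miR-106b-5p went from 0.23 to -0.18 without a call on either scale and was not counted. With a mean of at least 100 reads, which tests fewer miRNAs, 74 rose and 74 fell. The intronic difference of -0.34 was -0.17 with no filter and -0.24 at 100 reads, and, in alternatives chosen after seeing the data, -0.20 over the miRNAs also tested with p140 and -0.13 with those of mixed location counted among the others; the cause was not tested. Leaving out libraries gave 78 to 183 rises, 41 to 162 falls, 0 to 26 changed arm ratios and an intronic difference of -0.37 to -0.25. Arm ratios changed in 12 hairpins with at least 50 reads on each arm. The replicate block gave 192 rises, 175 falls and 52 changed arm ratios; of the main calls, 147 rises and 116 falls were also called. It moved 25 of the 164 named miRNAs past the threshold and lost the call of 0. DESeq2's test gave 141 rises and 101 falls. Of the 164 named miRNAs 25 lost their call without some single library and 8 gained one. Depth limits the scarce miRNAs: 3 reads, the limit that a count of 0 allows, are 1.06 to 1.72 CPM before scaling.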
